A study of Mus musculus with 9 samples.

Results

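The chaperone genes of mouse haematopoietic stem cell (HSC) cultures were described here across 3 populations sorted from the same kind of culture. Members were the rows of the raw count table whose symbols belong to the Hsp90, Hsp70 and Hsp110 families, the mitochondrial chaperonin Hspd1 and Hspe1, the numbered Cct subunits, the Dnaja, Dnajb and Dnajc J proteins without Dnajc6, and the Hspb-named genes, with pseudogene symbols left out. The rule found 83 members among 49585 rows, which are 3 Hsp90 genes, 15 Hsp70 and Hsp110 genes, 2 mitochondrial chaperonin genes, 9 Cct genes, 4 Dnaja, 13 Dnajb and 27 Dnajc genes, and 10 Hspb-named genes. Of these, 63 had enough counts to be tested and 20 did not, and 7 of the 20 had no count in any library.

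Chaperones bind unfolded or partly folded proteins and help them reach or keep their native state. Hsp70 proteins cycle between ATP-bound and ADP-bound forms, J proteins deliver clients and stimulate the ATPase, and Hsp110 proteins exchange the nucleotide. Hsp90 acts later, on kinases, receptors and other near-native clients, while the ring-shaped chaperonins (TRiC, built of Cct subunits, in the cytosol, and Hspd1 with its lid Hspe1 in the mitochondrial matrix) enclose their clients.

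Wild-type C57BL/6 bone marrow CD34-CD150+KSL cells (KSL, Kit+ Sca-1+ lineage-negative) were grown in F12 medium with 0.1% polyvinyl alcohol (PVA), 100 ng/ml thrombopoietin and 10 ng/ml stem cell factor, for 10 days by the design text and for 1 week by the growth protocol. From these cultures 3 populations were sorted, CD201+CD150+CD48-KSL cells (CD201+CD48- below), CD201+CD150+CD48+KSL cells (CD201+CD48+) and CD201-KSL cells (CD201-), whose sample titles add CD150+CD48+ to the gate. Each population gave 3 bulk RNA libraries from over 5000 sorted cells, read as pairs of 36 nt, with 3810123 to 7072885 gene counts per library. The labels do not say whether replicates came from separate mice or cultures, so p-values measure the spread between these libraries, which may be technical.

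The gate genes followed the labels. Procr, which encodes CD201, had 63.2 ± 3.74 CPM (counts relative to the TMM-scaled library total; mean ± SD, n = 3) in CD201+CD48- libraries, 26.5 ± 2.16 CPM in CD201+CD48+ and 3.56 ± 1.07 CPM in CD201- libraries, and Cd48 had 5.86 ± 0.671, 83.3 ± 7.22 and 125 ± 4.25 CPM. CD201- replicate 3 stood apart, with the lowest TMM factor of the 9 libraries (0.876, against 0.961 and 0.962 in the other CD201- libraries) and the fewest genes detected (13663). It was a median 0.24 (log2) above the mean of CD201- replicates 1 and 2 over the 63 tested members, with 45 of them higher, against a median of 0.01 over all 11619 genes tested. For the Hsp90 genes that median was 0.60. The counts of calls over all members are therefore also given without this library. So is each called value of a named member that lost its call or moved by over 1.5 times without it. Counts by family, role and gene list include this library unless stated otherwise.

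Chaperone genes took a smaller share of the RNA in the CD201+ populations. Members held 1.45, 1.53 and 1.48% of all counts in the CD201+CD48- libraries, 1.66, 1.68 and 1.61% in the CD201+CD48+ libraries, and 1.86, 1.91 and 2.34% in the CD201- libraries. The 3 ranges did not overlap, and the highest value was CD201- replicate 3. Hsp90 genes made up the largest part in each library, with 0.568 to 0.62% in CD201+CD48-, 0.629 to 0.682% in CD201+CD48+ and 0.771 to 1.1% in CD201- cells. In bulk RNA, fewer cells of a type that carries a transcript cannot be told apart from less of that transcript per cell.

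**Figure D1:**
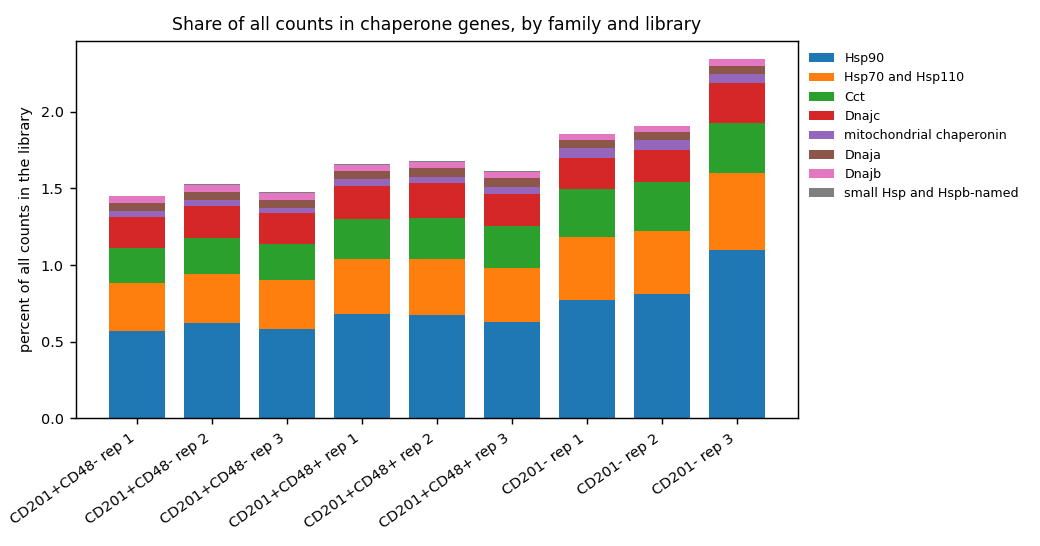
Percent of all counts in each library that fell in chaperone genes (y axis), stacked by family, for the 9 libraries (x axis). The 3 CD201+CD48- bars end at 1.45 to 1.53%, the CD201+CD48+ bars at 1.61 to 1.68% and the CD201- bars at 1.86 to 2.34%.

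Gene by gene, more members were lower than higher in the CD201+ populations. A gene was called where edgeR's quasi-likelihood test gave a Benjamini-Hochberg adjusted p under 0.05 over all 11619 genes tested. In CD201+CD48- against CD201- cells 30 of 63 tested members were lower (47.6%) and 8 were higher (12.7%), where 23.9% of all genes were lower and 24.2% were higher. In CD201+CD48+ against CD201- cells 21 were lower (33.3%) and 3 were higher (4.76%), against 14.3% and 14.8% of all genes. In CD201+CD48- against CD201+CD48+ cells 9 were lower (14.3%) and 1 was higher (1.59%), against 6.31% and 9.05% of all genes. Below, these are the first, the second and the third comparison, and the first and the second share their CD201- libraries.

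The median log2 fold change of the tested members was -0.26, -0.18 and -0.07 in these 3 comparisons, and that of all genes lay within 0.01 of 0. Without CD201- replicate 3 the members called were 29 lower and 8 higher, 21 lower and 5 higher, and 24 lower and 7 higher, and of the calls above 28 and 6, 20 and 3, and 9 and 1 were among them. Calls over all genes rose in that fit as well, to 3071 lower and 3021 higher, 2115 and 2127, and 1712 and 1822 of 11794 genes tested, of which the lower ones are 26.0%, 17.9% and 14.5%. CD201- cells are not in the third comparison but enter its fit, and why its calls rose was not tested. CD201+CD48+ cells had a mean between those of the other 2 populations for 47 of 63 members (74.6%), and for 63.3% of all genes tested.

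Calls were also counted by family. Members other than J proteins, 26 of them tested, had 19 lower and 1 higher in CD201+CD48- against CD201- cells, with a median of -0.60. The 37 tested J protein genes had 11 lower (29.7%) and 7 higher (18.9%), with a median of -0.02, which is near the shares over all genes (23.9% and 24.2%). Scaling by library size alone raised the median of all genes by 0.17 there and turned the medians of the Dnaja and Dnajc genes positive (0.008 and 0.079). In CD201+CD48+ against CD201- cells the counts were 16 lower and 0 higher among the former, and 5 lower (13.5%) and 3 higher (8.11%) among J proteins, beside 14.3% and 14.8% of all genes.

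**Figure D2:**
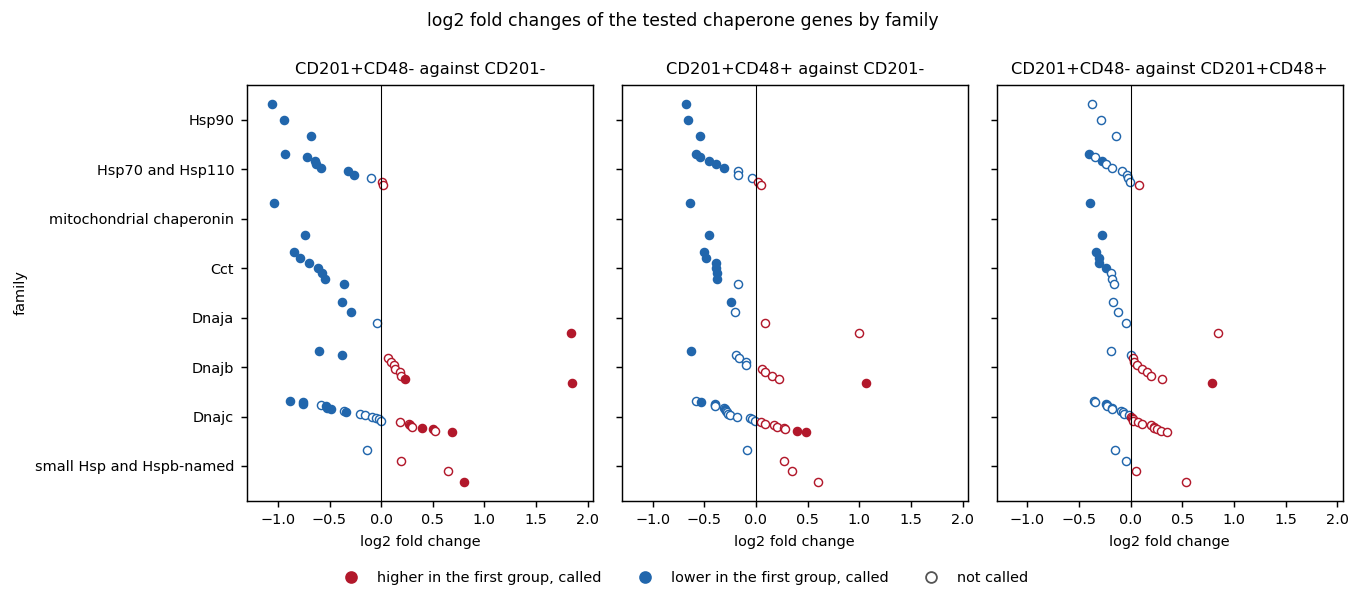
log2 fold change (x axis) of each of the 63 tested chaperone genes, by family (y axis), in the 3 comparisons, filled where the gene was called. All points of the Hsp90, mitochondrial chaperonin and Cct families lie left of 0 in each panel, while the J protein families have points on both sides.

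Levels of all 3 Hsp90 genes were below those of CD201- cells in both CD201+ populations. Hsp90ab1 (GRCm38.p6 chr17:45567778-45573261), the constitutive cytosolic Hsp90, had 4081, 4310 and 4089 CPM in CD201+CD48-, 4835, 4636 and 4313 CPM in CD201+CD48+ and 5636, 5877 and 8494 CPM in CD201- libraries. Its 3 CD201- libraries were all above the other 6, and the CD201+ populations did not overlap each other, by a gap of only 4310 to 4313 CPM. Its log2 fold change was -0.68 (SE 0.14, adjusted p = 0.00068) in CD201+CD48- and -0.54 (SE 0.14, adjusted p = 0.00769) in CD201+CD48+ against CD201- cells, the latter -0.32 without CD201- replicate 3 and still called. Per kilobase of transcript it was also the most abundant member, at a mean of 1902 CPM per kb over the 9 libraries, followed by Hspa8 at 535 and Hsp90aa1 at 352 CPM per kb.

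Hsp90aa1 (chr12:110691036-110696395), the stress-responsive cytosolic form, had 777, 955 and 821 CPM in CD201+CD48-, 1077, 1201 and 1045 CPM in CD201+CD48+ and 1388, 1465 and 2458 CPM in CD201- libraries. The 3 groups did not overlap, and CD201- replicate 3 was far above its own group. Against CD201- cells the log2 fold change was -1.06 (SE 0.18, adjusted p = 0.000377) in CD201+CD48- and -0.68 (SE 0.18, adjusted p = 0.0135) in CD201+CD48+ cells. Without CD201- replicate 3 these were -0.75 and -0.36 and both stayed called. The second was not called without the low-count filter, nor without CD201+CD48+ replicate 3. Its adjusted p ranged from 6.37e-05 to 0.124 over the 16 alternatives. More than 50% of its 36-base words (57.2%) also occur in other annotated genes, Gm12346 most often, so its counts depend on how such reads were assigned.

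Hsp90b1, the Hsp90 of the endoplasmic reticulum (ER) lumen, had 551, 705 and 653 CPM in CD201+CD48-, 775, 788 and 758 CPM in CD201+CD48+ and 1007, 1080 and 1579 CPM in CD201- libraries. The groups did not overlap, and its log2 fold changes against CD201- cells were -0.94 (SE 0.15, adjusted p = 0.000123) and -0.66 (SE 0.15, adjusted p = 0.00406), the second -0.43 without CD201- replicate 3 and still called. None of the 3 Hsp90 genes was called between the CD201+ populations, at -0.14, -0.38 and -0.28 for Hsp90ab1, Hsp90aa1 and Hsp90b1. Without CD201- replicate 3 all 3 were called lower there, at nearly the same sizes of -0.15, -0.39 and -0.29.

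Among Hsp70 and Hsp110 genes, 7 of 10 tested were lower in CD201+CD48- and 5 in CD201+CD48+ cells, against CD201- cells, and none was higher. Of all genes 23.9% and 14.3% were lower there, and 24.2% and 14.8% were higher. The third comparison had 2 of the 10 lower and none higher, beside 6.31% of all genes lower and 9.05% higher. Hspa8, the constitutive cytosolic Hsp70, had 999, 1073 and 1020 CPM in CD201+CD48-, 1203, 1269 and 1186 CPM in CD201+CD48+ and 1415, 1495 and 1876 CPM in CD201- libraries. The groups did not overlap, and the log2 fold changes against CD201- cells were -0.63 (SE 0.10, adjusted p = 0.000127) and -0.39 (SE 0.10, adjusted p = 0.0104), the second not called without CD201+CD48+ replicate 3, and -0.25 and called without CD201- replicate 3. Of its 36-base words 76.2% occur in other annotated genes, the highest share among the members, and small nucleolar RNA genes lie within it.

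The 3 Hsp110-type exchange factors were lower in CD201+CD48- against CD201- cells as well. Hspa4 had 497 to 521 CPM in CD201+CD48-, 563 to 596 CPM in CD201+CD48+ and 695, 701 and 991 CPM in CD201- libraries, with log2 fold changes of -0.64 (adjusted p = 0.000336) and -0.46 (adjusted p = 0.00779), the second -0.27 and still called without CD201- replicate 3. Hsph1 had 81.3 to 89.0, 108 to 119 and 126 to 168 CPM, and it was called in all 3 comparisons, at -0.72, -0.31 and -0.40 (adjusted p = 3.5e-05, 0.0262 and 0.013). The call in CD201+CD48+ cells was lost without CD201+CD48+ replicate 2 or 3 or CD201- replicate 3 (-0.17 without the last), and the call between the CD201+ populations without CD201+CD48- replicate 3 or CD201+CD48+ replicate 1 or 3. Hspa4l was called in the first comparison alone, at -0.26 (adjusted p = 0.0299), and gave -0.17 in the second (adjusted p = 0.167). That call was lost in 7 of 16 alternatives, among them without CD201- replicate 3 (-0.16) and without CD201+CD48- replicate 1 or 2.

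The heat-inducible Hsp70 genes were almost silent. Hspa1a had 3, 1 and 2 counts, and Hspa1b had 11, 13 and 1 counts summed over the 3 libraries of the CD201+CD48-, CD201+CD48+ and CD201- populations, so neither was tested. In CPM, Hspa1b was at 1.06, 1.26 and 0 in CD201+CD48-, 0.513, 0.567 and 0.963 in CD201+CD48+ and 0, 0.215 and 0 in CD201- libraries. CD201+CD48+ libraries all lay above CD201- libraries, and CD201+CD48- libraries overlapped both. These genes share 64.2% (Hspa1a) and 66.4% (Hspa1b) of their 36-base words with other genes, chiefly with each other, and how reads that match both were counted is not stated. Hspa2, Hspa12b and Hspa13 were tested and not called in any comparison, with log2 fold changes between -0.18 and 0.08. Hspa14, a ribosome-linked Hsp70, appears as a row named Hspa14_1, which was lower in CD201+CD48- cells than in CD201- cells (-0.32, adjusted p = 0.00458) and than in CD201+CD48+ cells (-0.28, adjusted p = 0.0288, lost in 6 of 16 alternatives), and a row named Hspa14_2 with no count.

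**Figure D3:**
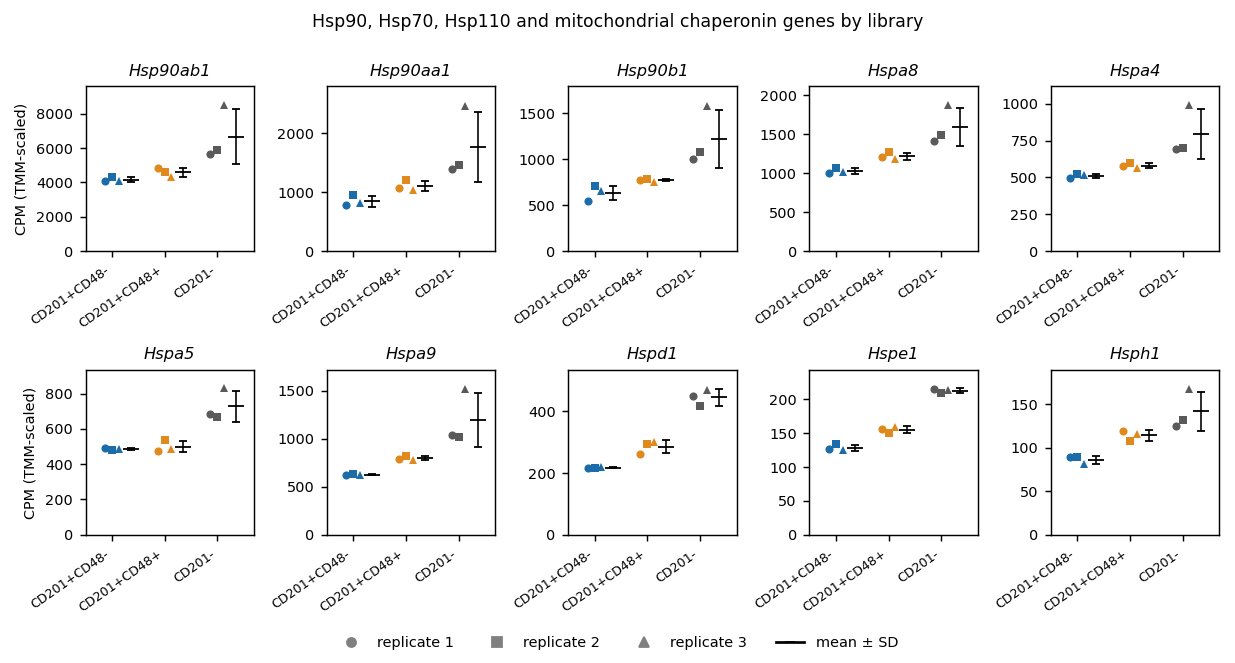
CPM (y axis, TMM-scaled) of 10 Hsp90, Hsp70, Hsp110 and mitochondrial chaperonin genes in each library, by population (x axis), with marker shapes for replicates and bars for mean ± SD (n = 3). CD201- libraries are highest in each panel, and replicate 3 of that group lies far above the other 2 for Hsp90aa1 (2458 against 1388 and 1465 CPM) but not for Hspe1 (214 against 216 and 209 CPM).

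Both mitochondrial chaperonin genes were lower in each of the 3 comparisons. Hspd1 (the Hsp60 chaperonin ring) had 216, 218 and 219 CPM in CD201+CD48-, 263, 294 and 301 CPM in CD201+CD48+ and 449, 417 and 471 CPM in CD201- libraries. The groups did not overlap, and the log2 fold change was -1.03 (SE 0.08, adjusted p = 5.97e-08) in CD201+CD48- and -0.64 (SE 0.08, adjusted p = 2.17e-05) in CD201+CD48+ against CD201- cells. Between the CD201+ populations it was -0.39 (SE 0.08, adjusted p = 0.00301).

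Hspe1 (the Hsp10 lid of that ring) had 126, 133 and 125 CPM in CD201+CD48-, 156, 150 and 160 CPM in CD201+CD48+ and 216, 209 and 214 CPM in CD201- libraries. Its groups did not overlap either, CD201- replicate 3 lay within its group, and the log2 fold changes were -0.73, -0.46 and -0.28 (SE 0.07 each; adjusted p = 5.5e-07, 0.000144 and 0.0125). The last of these calls was lost without CD201+CD48- replicate 1 or 3 or CD201+CD48+ replicate 3, with an adjusted p of up to 0.0685 over the alternatives. Hspd1 stayed called in all 3 comparisons under all 16 alternatives. Other annotated genes hold 53.4% of the 36-base words of Hspd1, most often Hspd1-ps3.

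Hspd1 (chr1:55077833-55088243) and Hspe1 (chr1:55088148-55091317) are head-to-head neighbours that overlap at their starts in the RefSeq annotation of GRCm38.p6. Heat shock factors bind heat shock elements, alternating GAA and TTC units. The stretch shown, at chr1:55088054-55088081 on the plus strand, begins 5 bases before an element that itself starts 89 bases before the RefSeq start of Hspe1. Read on the minus strand it lies before 1 of the annotated starts of Hspd1, so both genes carry the same site. Capitals mark the 2 overlapping matches to GAANNTTCNNGAA (searched on both strands):
Hspe1: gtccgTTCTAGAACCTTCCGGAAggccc
This motif was found in 4 of the 67 members with a RefSeq promoter (5.97%; 250 bases before to 50 after the start) and in 179 of 27025 genes (0.662%). The other members holding it were Dnajb6 and, past its start, Hsph1. A match describes the letters of the window and is no measurement of binding.

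Hspa9, the mitochondrial Hsp70 that pulls proteins into the matrix, had 620, 631 and 628 CPM in CD201+CD48-, 794, 822 and 781 CPM in CD201+CD48+ and 1043, 1024 and 1517 CPM in CD201- libraries. The groups did not overlap, and the log2 fold changes against CD201- cells were -0.93 (SE 0.12, adjusted p = 2.19e-05) and -0.58 (SE 0.12, adjusted p = 0.00272), or -0.73 and -0.37 without CD201- replicate 3. Against CD201- cells, 23.9% of all genes were lower in CD201+CD48- and 14.3% in CD201+CD48+ cells. Of 6 tested J proteins of mitochondria, 4 (66.7%) and 2 (33.3%) were lower. These included Dnajc19 of the import motor, with 21.0, 26.3 and 24.4 CPM in CD201+CD48-, 31.4, 32.1 and 27.8 CPM in CD201+CD48+ and 33.6, 40.7 and 45.6 CPM in CD201- libraries, without overlap, and log2 fold changes of -0.75 (adjusted p = 0.00027) and -0.40 (adjusted p = 0.0273). The second of these Dnajc19 calls was lost in 5 of 16 alternatives. Dnajc11, which associates with the cristae-organizing complex, was lower in all 3 comparisons at -0.54, -0.30 and -0.24 (adjusted p = 4.33e-05, 0.0088 and 0.0465), and the call between the CD201+ populations was lost in 14 of 16 alternatives. Dnajc15 and Dnaja3 were lower in the first comparison alone, at -0.34 and -0.38 (adjusted p = 0.0376 and 0.00109), the Dnajc15 call being lost in 10 of 16 alternatives. Dnajc4 and Dnajc30 had positive values and were not called, at 0.30 and 0.52 in the first comparison and 0.28 and 0.27 in the second.

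Subunit genes of the cytosolic chaperonin TRiC were lower together. All 7 tested Cct subunit genes were lower in CD201+CD48- against CD201- cells, 6 (85.7%) in CD201+CD48+ against CD201- cells and 4 (57.1%) between the CD201+ populations. Of all genes 23.9%, 14.3% and 6.31% were lower there. The Cct medians were -0.62, -0.39 and -0.24. Cct6a changed most, with 295, 315 and 286 CPM in CD201+CD48-, 383, 377 and 375 CPM in CD201+CD48+ and 501, 514 and 595 CPM in CD201- libraries. Its groups did not overlap, and the log2 fold changes were -0.85, -0.51 and -0.34 (SE 0.08 each; adjusted p = 8.58e-07, 0.000319 and 0.0108).

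Cct7 and Cct8 followed with -0.79 and -0.70 in the first comparison (adjusted p = 1.43e-06 and 3.19e-06), then Cct3, Cct5 and Cct2 with -0.62, -0.57 and -0.55. Cct4 changed least, with 234, 225 and 240 CPM in CD201+CD48-, 255, 261 and 280 CPM in CD201+CD48+ and 314, 307 and 276 CPM in CD201- libraries. There CD201- replicate 3 was the lowest of its group and overlapped CD201+CD48+ cells, and the log2 fold change was -0.36 (adjusted p = 0.00125) in the first comparison and -0.17 (adjusted p = 0.1) in the second. Without that library all 7 genes were lower in each of the 3 comparisons. Between the CD201+ populations Cct3, Cct6a, Cct7 and Cct8 were called lower at -0.24, -0.34, -0.31 and -0.31 (adjusted p = 0.0281, 0.0108, 0.0173 and 0.0124), and each of these calls was lost on leaving out 1 or more single CD201+ libraries. Cct6b and Cct8l1, testis-enriched relatives, had 16 and 4 counts over the 9 libraries and were not tested.

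**Figure D4:**
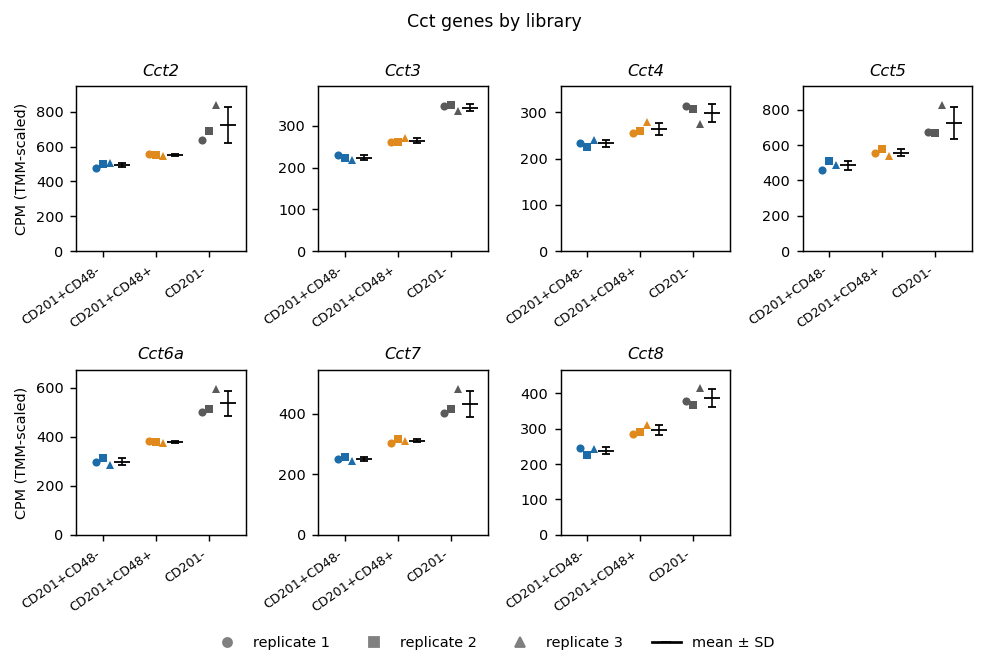
CPM (y axis, TMM-scaled) of the 7 tested Cct genes in each library, by population (x axis), with marker shapes for replicates and bars for mean ± SD (n = 3). The CD201+CD48- libraries lie below the CD201+CD48+ libraries in each panel, and CD201- libraries lie above both except for Cct4, where the lowest of them (276 CPM) falls within the CD201+CD48+ range of 255 to 280 CPM.

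Tcp1, the remaining TRiC subunit, is not a member by its symbol and moved with the Cct genes. It had 615, 641 and 608 CPM in CD201+CD48-, 782, 888 and 792 CPM in CD201+CD48+ and 971, 979 and 1375 CPM in CD201- libraries, with log2 fold changes of -0.84, -0.43 and -0.40 (adjusted p = 4.01e-05, 0.0126 and 0.0325). CD201- replicate 3 was far above its group for Tcp1, and fold changes without that library are not given for this gene. Of the 10 tested prefoldin and TRiC partner genes, Tcp1 included, 5 were lower and 1 higher in the first comparison, 2 (20.0%) lower in the second and 1 (10.0%) lower in the third, beside 23.9%, 14.3% and 6.31% of all genes lower. The higher one was Pfdn5, a prefoldin subunit, at 0.33 (adjusted p = 0.0015).

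In the ER lumen some members fell and 1 rose. Hspa5 (BiP, the ER Hsp70; chr2:34772090-34776529) had 492, 479 and 485 CPM in CD201+CD48-, 477, 537 and 486 CPM in CD201+CD48+ and 685, 670 and 830 CPM in CD201- libraries. The CD201+ populations overlapped and both lay below CD201- cells, with log2 fold changes of -0.59 (SE 0.09, adjusted p = 8.89e-05) and -0.54 (SE 0.09, adjusted p = 0.000432) and of -0.04 (adjusted p = 0.821) between them. Dnajb11, a soluble J protein that delivers clients to BiP, had the same order, with 58.3, 59.1 and 52.7 CPM in CD201+CD48-, 53.1, 57.5 and 56.5 CPM in CD201+CD48+ and 79.0, 74.2 and 104 CPM in CD201- libraries. Its log2 fold changes were -0.60 (adjusted p = 0.00054) and -0.63 (adjusted p = 0.00082), and the CD201+ populations differed by 0.03 (adjusted p = 0.917).

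Dnajc10 (ERdj5, a disulfide reductase that works with BiP; chr2:80315446-80354055) went the other way. It had 243, 267 and 240 CPM in CD201+CD48-, 240, 266 and 236 CPM in CD201+CD48+ and 165, 179 and 185 CPM in CD201- libraries. The CD201+ populations overlapped and both lay above CD201- cells, with log2 fold changes of 0.50 (SE 0.08, adjusted p = 0.000104) and 0.49 (SE 0.08, adjusted p = 0.000345). The other tested members counted with the ER lumen, Dnajb9 (ERdj4) and Dnajc3 (P58IPK) among them, were not called, at 0.06 and -0.16 in the first comparison.

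The ER stress element, to which unfolded protein response factors bind in ER chaperone promoters, was searched as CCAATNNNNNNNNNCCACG on both strands. It was found in 3 of 67 members (4.48%), Hspa5, Hsp90b1 and Dnajc3, and in 37 of 27025 genes (0.137%). The sites are shown in capitals, with 5 bases on each side, because 2 of these 3 genes fell in the CD201+ populations while Dnajc3 was not called. They lie at chr2:34772020-34772048 (plus strand, element 65 bases before the RefSeq start), chr10:86705633-86705661 and chr10:86705528-86705556 (minus strand, 212 and 107 bases before the start) and chr14:118937822-118937850 (plus strand, 105 bases before the start), all GRCm38.p6:
Hspa5: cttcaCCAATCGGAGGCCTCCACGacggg
Hsp90b1, distal: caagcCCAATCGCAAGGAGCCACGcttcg
Hsp90b1, proximal: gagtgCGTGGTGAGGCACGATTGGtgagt
Dnajc3: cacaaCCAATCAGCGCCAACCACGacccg
The proximal Hsp90b1 site matches on the opposite strand.

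J proteins of the cytosol and nucleus moved in both directions. The largest log2 rise among the tested members was that of Dnajb5 (chr4:42949867-42959425), an Hsp40-type J protein known from neurons and heart. It had 15.9, 16.9 and 14.6 CPM in CD201+CD48-, 11.3, 6.05 and 9.90 CPM in CD201+CD48+ and 4.43, 3.23 and 5.48 CPM in CD201- libraries. The groups did not overlap, and with all 9 libraries in the fit it was the only member called higher in all 3 comparisons, with log2 fold changes of 1.85 (SE 0.25, adjusted p = 2.1e-05), 1.07 (SE 0.26, adjusted p = 0.00655) and 0.78 (SE 0.21, adjusted p = 0.0182). The last of these calls was lost without each of 4 single CD201+ libraries, with an adjusted p from 0.000305 to 0.0835 over the alternatives.

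Dnaja4, a cytosolic type A J protein, had 3.71, 5.81 and 4.21 CPM in CD201+CD48-, 2.56, 2.46 and 2.48 CPM in CD201+CD48+ and 0.885, 1.08 and 1.75 CPM in CD201- libraries. These are 63, 46 and 17 counts per group, the groups did not overlap, and the log2 fold change was 1.84 (SE 0.37, adjusted p = 0.000664) in the first comparison. In the other 2 it was 1.00 (adjusted p = 0.0664) and 0.84 (adjusted p = 0.0719), neither called, but both were called without CD201- replicate 3 (adjusted p = 0.0338 and 0.0355). Dnajc18, a J protein of the ER membrane, had 42.6, 33.9 and 33.2 CPM in CD201+CD48-, 26.8, 33.3 and 30.1 CPM in CD201+CD48+ and 23.7, 22.6 and 22.1 CPM in CD201- libraries. Its CD201+ populations overlapped and both were above CD201- cells, at 0.69 (adjusted p = 0.000443) and 0.40 (adjusted p = 0.0315). The second of these Dnajc18 calls was lost in 5 of 16 alternatives. The smaller rises in the first comparison were those of Dnajc16 (0.40, adjusted p = 0.0129), Dnajc5 of secretory vesicles (0.28, adjusted p = 0.046) and Dnajb14 of the ER membrane (0.23, adjusted p = 0.0439). The calls of Dnajc5 and Dnajb14 were lost in 10 and 12 of 16 alternatives, among them without CD201- replicate 3 (0.14 and 0.22).

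Several ribosome-linked and nuclear J proteins fell. Dnajc2, which sits at the ribosome exit with a Hsp70 partner, had 274, 311 and 306 CPM in CD201+CD48-, 362, 424 and 350 CPM in CD201+CD48+ and 442, 475 and 723 CPM in CD201- libraries. The groups did not overlap, and the log2 fold changes against CD201- cells were -0.88 (SE 0.16, adjusted p = 0.000443) and -0.53 (SE 0.15, adjusted p = 0.0208), the second lost without CD201+CD48+ replicate 1 or 3, and -0.28 and called without CD201- replicate 3. Of 5 tested members of this role, 3 (60.0%) were lower in the first comparison, 1 (20.0%) in the second and 0 in the third. Of all genes 23.9%, 14.3% and 6.31% were lower there, so the second count is near the share of all genes. CD201- replicate 3 was far above its group for Dnajc21, a factor of large ribosomal subunit maturation (161 against 78.8 and 83.3 CPM), and for Dnajc8, a spliceosome component (421 against 220 and 217 CPM). Dnajc21 gave -0.76 (adjusted p = 0.0226) and Dnajc8 gave -0.58 (adjusted p = 0.0717) in the first comparison. Without that library they gave -0.36 (adjusted p = 0.000395) and -0.20 (adjusted p = 0.016), both called. The Dnajc21 call was lost without CD201+CD48- replicate 1 or 3, and without the low-count filter. Dnajc9, a histone cochaperone, and Dnajc7, which carries TPR repeats that bind Hsp70 and Hsp90, were called lower in that comparison alone, at -0.49 (adjusted p = 0.000544) and -0.52 (adjusted p = 0.00223).

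The classical Hsp40 genes changed little. Dnaja1 had 158, 165 and 156 CPM in CD201+CD48-, 169, 177 and 176 CPM in CD201+CD48+ and 149, 157 and 185 CPM in CD201- libraries, so that CD201- cells overlapped both other groups. It was not called in any comparison, at -0.04, 0.08 and -0.13. Dnajb1, the heat-inducible Hsp40, was not called either, at 0.19, 0.09 and 0.11 (adjusted p = 0.0839, 0.492 and 0.451). Dnaja2 was lower in both CD201+ populations, at -0.29 (adjusted p = 0.00761) and -0.24 (adjusted p = 0.0327), the second call lost in 9 of 16 alternatives and -0.16 and called without CD201- replicate 3. Dnajb6, a suppressor of protein aggregation, was lower in the first comparison at -0.38 (adjusted p = 0.0426). That call was lost in 10 of 16 alternatives, among them without CD201- replicate 3, where it gave -0.16 (adjusted p = 0.169). Dnajb4 was not called, at 0.137, -0.166 and 0.303 (adjusted p = 0.401, 0.349 and 0.123). Without CD201- replicate 3 it was called higher in the first and the third comparison, at 0.265 and 0.295 (adjusted p = 0.0404 and 0.0131). Dnajb12, the Dnajb gene with the highest mean CPM, was not called either, at 0.092, -0.099 and 0.191 (adjusted p = 0.41, 0.419 and 0.158).

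**Figure D5:**
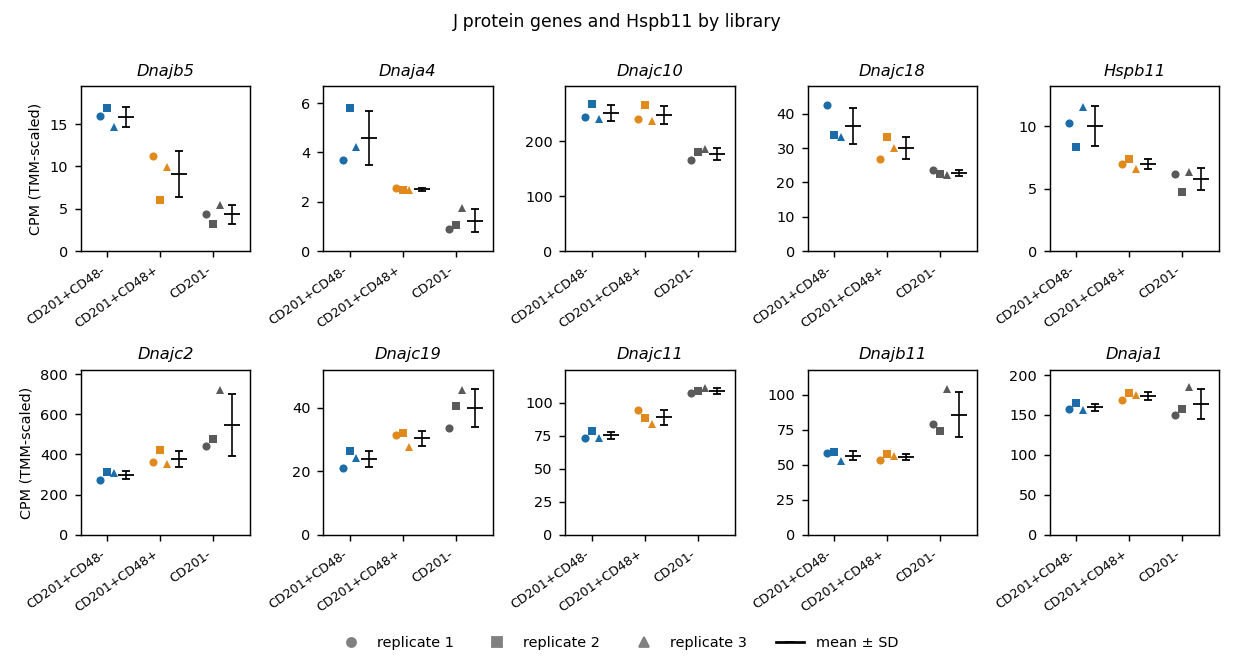
CPM (y axis, TMM-scaled) of 9 J protein genes and Hspb11 in each library, by population (x axis), with marker shapes for replicates and bars for mean ± SD (n = 3). The top row shows genes highest in CD201+ cells, such as Dnajb5 (14.6 to 16.9 CPM in CD201+CD48- against 3.23 to 5.48 CPM in CD201- libraries), and the bottom row shows genes lower in CD201+ cells, with Dnaja1 as a gene that was not called.

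Small heat shock proteins hold aggregating clients without using ATP, and transcripts of those among the members were few. Hspb1 had 1, 1 and 0 counts, Hspb8 had 3, 8 and 2 and Hspb7 had 2, 0 and 0 counts in CD201+CD48-, CD201+CD48+ and CD201- cells. Hspb2 and Hspb3 had none, and of the true small heat shock genes among the members Hspb6 alone was tested. Other annotated genes hold 60.0% of the 36-base words of Hspb1, Hsp25-ps1 most often, so its counts depend on how such reads were assigned. Hspb6 had 5.76 to 7.33, 5.86 to 6.33 and 2.41 to 5.38 CPM and was not called (0.64, adjusted p = 0.0667). Hspb11 carries the family name but encodes an intraflagellar transport subunit. It had 10.2, 8.34 and 11.5 CPM in CD201+CD48-, 7.005, 7.37 and 6.60 CPM in CD201+CD48+ and 6.20, 4.73 and 6.36 CPM in CD201- libraries, without overlap, and was called in the first comparison at 0.81 (SE 0.21, adjusted p = 0.00489). Hspbp1, an Hsp70 exchange factor, was not called in any comparison, at -0.135, -0.089 and -0.045. Neither was Hspbap1, at 0.197, 0.346 and -0.149.

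Genes that work with the members were counted from lists set up for their roles, to be read beside the 23.9%, 14.3% and 6.31% of all genes that were lower in the 3 comparisons. Of 21 tested Hsp90 cochaperones, 12 (57.1%) were lower in CD201+CD48- and 11 (52.4%) in CD201+CD48+ cells against CD201- cells, and 3 (14.3%) were lower between the CD201+ populations. Fkbp4, a peptidyl-prolyl isomerase of the steroid receptor complex, had 147, 144 and 155 CPM in CD201+CD48-, 183, 193 and 184 CPM in CD201+CD48+ and 281, 290 and 313 CPM in CD201- libraries. Its groups did not overlap, and it fell by 0.99, 0.66 and 0.33 on the log2 scale (adjusted p = 4.32e-08, 8.08e-06 and 0.00661). Stip1, which bridges Hsp70 and Hsp90, gave -0.69 and -0.46 against CD201- cells (adjusted p = 1.52e-05 and 0.00126). The only cochaperone called higher was Tsc1, in CD201+CD48+ cells (0.22, adjusted p = 0.033).

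Of 11 cytosolic Hsp70 cochaperones tested, Hspbp1 included, 5 (45.5%) were lower in the first comparison, 2 (18.2%, near the share of all genes) in the second and 0 in the third, and none was higher. Bag1, a nucleotide exchange factor, gave -0.67 (adjusted p = 0.000118) and -0.57 (adjusted p = 0.000981). Of 23 ER folding and unfolded protein response genes, 14 (60.9%) and 16 (69.6%) were lower against CD201- cells, among them Hyou1, the ER exchange factor (-0.61 and -0.59), and P4hb, a disulfide isomerase (-0.62 and -0.55). Between the CD201+ populations none of the 23 was lower and 1, Derl1, was higher. Of 14 mitochondrial quality control genes 5 (35.7%), 4 (28.6%) and 1 (7.14%, near the share of all genes) were lower in the 3 comparisons, including Grpel1, the exchange factor of Hspa9 (-0.99 and -0.79, adjusted p = 3.76e-06 and 6.46e-05), and Lonp1, a matrix protease (-0.62 and -0.49).

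The regulators did not move as a group. Hsf1, the main heat shock transcription factor, had 26.5 ± 0.872 CPM in CD201+CD48-, 29.7 ± 2.09 CPM in CD201+CD48+ and 32.1 ± 4.83 CPM in CD201- libraries and was not called (-0.28, adjusted p = 0.0849, in the first comparison). Atf4, the effector of the integrated stress response, had 285, 277 and 289 CPM in CD201+CD48-, 323, 347 and 340 CPM in CD201+CD48+ and 549, 557 and 598 CPM in CD201- libraries, without overlap, and log2 fold changes of -1.002, -0.754 and -0.247 (adjusted p = 4.28e-08, 2.87e-06 and 0.0341). Trib3 (-1.15 and -1.06) and Ddit3 (-1.002 and -0.821), genes downstream of Atf4, were lower against CD201- cells too. Ern1, which encodes the ER stress sensor IRE1, was higher in both CD201+ populations (0.56 and 0.52, adjusted p = 1.39e-05 and 6.37e-05). Of the 16 regulators tested 3 were higher (18.8%) and 4 lower (25.0%) in the first comparison, near the shares of all genes (24.2% and 23.9%). In the second 1 was higher (6.25%) and 4 lower (25.0%), beside 14.8% and 14.3% of all genes. In the third 1 was higher and 1 lower (6.25% each), beside 9.05% and 6.31% of all genes.

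Other gene groups differed across the populations too. S phase genes were lower for 21 of 21 tested in CD201+CD48- and 17 (81.0%) in CD201+CD48+ cells against CD201- cells, and for 19 (90.5%) between the CD201+ populations. Of all genes 23.9%, 14.3% and 6.31% were lower in these comparisons. Summed levels of the S phase genes were 3086 to 3140, 4152 to 4254 and 5191 to 5859 CPM in CD201+CD48-, CD201+CD48+ and CD201- libraries. G2 and M phase genes summed to 6017 to 6249, 8417 to 8828 and 8970 to 11540 CPM, the highest in CD201- replicate 3. Of 21 tested, 20 were lower in the first comparison, 4 in the second (19.0%, beside 14.3% of all genes) and 19 in the third. Immediate early genes, which are induced quickly by signals and by cell handling, summed to 679 to 703, 565 to 588 and 523 to 557 CPM. Of 20 tested, 9 (45.0%) were higher and 1 lower in the first comparison. In the second 5 (25.0%) were higher and 2 lower, and in the third 5 (25.0%) were higher and 0 lower. Of all genes 24.2%, 14.8% and 9.05% were higher. The part of these gene groups in the chaperone results was not tested.

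Markers of other blood cells also differed. The sum over 10 megakaryocyte markers, none at 0, was 1529 to 1665 CPM in CD201+CD48-, 293 to 305 CPM in CD201+CD48+ and 541 to 625 CPM in CD201- libraries. For 9 mast cell and basophil markers it was 5.09 to 9.35, 2.89 to 4.61 and 35.9 to 44.0 CPM, with Cma1, Tpsb2 and Mcpt4 at 0. Sums over granulocyte and monocyte markers were 232 to 248, 204 to 220 and 168 to 199 CPM with S100a9 at 0, over erythroid markers 707 to 748, 653 to 697 and 603 to 640 CPM with Car1 and Hba-a1 at 0, and over lymphocyte markers 11.9 to 13.2, 12.9 to 15.7 and 10.7 to 21.9 CPM with Ms4a1, Cd3e and Cd3g at 0. A sum can hide opposite moves of its genes. In the first comparison 3 of 8 tested granulocyte and monocyte markers were higher and 3 lower, with log2 fold changes from -8.72 to 3.1. Of 6 tested erythroid markers 3 were higher and 2 lower, and of all genes 24.2% were higher and 23.9% lower. The part of these markers in the chaperone results was not tested either.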

How the data were processed

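Values analysed are whole-number counts per gene symbol, deposited by the authors as a raw table and not normalized. Not given in the sources used here are the aligner, the counter, its annotation and its strand setting. Per the submitters' processing notes, mm10 and DESeq2 were used, without versions. A second, normalized table was not used, nor were 3 columns that matched no sample label. Genes were kept by filterByExpr of edgeR 4.0.16 in R 4.3.3 (minimum count 10). Testing used TMM factors and the robust quasi-likelihood F test on all 9 libraries in 1 fit by group, with a common biological coefficient of variation of 8.64%. Benjamini-Hochberg adjustment covered the 11619 genes tested, and the fit was tested on simulated counts. The SE of a log2 fold change is its size divided by the square root of F. Members and lists were chosen with earlier results of these data known. In each family the text names up to 5 members with the smallest p, the most abundant one and those called against their family. It also names all Hsp90, Cct, chaperonin and stress-inducible Hsp70 genes, and up to 4 genes of each list. Others were named after their values were seen. Pseudogene rows left out numbered 13, with 8 counts in all. Coordinates and promoters are RefSeq's for GRCm38.p6, the assembly of mm10, and 82 of 83 members had coordinates, 35 of them overlapping another gene. Transcript lengths and 36-base words came from GENCODE M39, which had 81 members. The list gene Ero1b had no row. Alternatives were RLE size factors, library size alone, no low-count filter, at least 50 counts in 3 libraries, DESeq2 1.42.0, the compared groups alone, a replicate block, and leaving out each library in turn. Figures were drawn with matplotlib 3.10.9.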

Additional observations from a re-analysis of the deposited data

How the results depend on the processing

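Among the 63 tested members no call changed direction under the 16 alternatives, and of the values per member, comparison and alternative 2785 kept their side of the threshold, 134 lost their call and 81 gained one. Scaling by library size alone gave all genes a median log2 fold change of 0.17, 0.13 and 0.03 in the 3 comparisons. It made the calls over all genes 3974 higher and 1685 lower in CD201+CD48- against CD201- cells (2807 and 2778 as reported). In CD201+CD48+ against CD201- cells they were 2701 and 851 (1723 and 1661 as reported). Members higher there were 13 and 6 (8 and 3 as reported), and members lower were 24 and 17 (30 and 21 as reported). Between the CD201+ populations, members higher were 2 with RLE factors, 2 with the stricter filter and 7 with only these groups in the fit, where 22 were lower. Of all genes, 1083, 822 and 1763 were higher in these fits (1052 as reported), and 1576 were lower in the last (733 as reported). On leaving out each library in turn, members higher ranged from 2 to 5 in CD201+CD48+ against CD201- cells and from 0 to 7 between the CD201+ populations, and members lower there from 2 to 24. Over all genes, higher calls ranged from 1265 to 2127 and from 663 to 1822, and lower calls between the CD201+ populations from 360 to 1712. The 24 came without CD201- replicate 3, and without a CD201+CD48- library (replicates 1, 2 and 3) the count was 3, 5 and 2 and without a CD201+CD48+ library 5, 5 and 3. Lower calls over all genes fell as well, from 733 to 360, 428 and 403 without a CD201+CD48- library. Without a CD201+CD48+ library they fell to 491, 437 and 401. Members lower in CD201+CD48+ against CD201- cells fell from 21 to 14 without CD201+CD48+ replicate 3, where lower calls over all genes fell from 1661 to 1073. The cause was not tested.

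Correlations of deviations from the group means were -0.113 to 0.0447 between same-numbered libraries of different groups, and -0.0722 to 0.1 between differently numbered ones. Such values cannot show whether same-numbered libraries came from 1 culture or mouse. With the replicate block 7 members were higher and 29 lower, 2 and 21, and 1 and 7 in the 3 comparisons. Over all 11619 genes tested, the higher and lower calls were 2690 and 2632, 1566 and 1472, and 872 and 569 in that fit. Members with few counts limit the depth: the 13 untested members with any count had at most 34 over 9 libraries.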

Other observations

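Members that were not tested were chiefly genes known from other tissues. Dnajb3, Dnajb7, Dnajb8 and Dnajc5b had no count in any library, nor did Hspb2 and Hspb3. Dnajc28 had 16, 11 and 7 counts in CD201+CD48-, CD201+CD48+ and CD201- cells, and Hspb9 had 12, 10 and 9, while Dnajc22, Dnajc5g, Hspa12a and Hspa1l had 0 to 2 counts per population. Among tested members without a call in any comparison were Dnajc13, an endosomal J protein, at -0.02 and -0.01 against CD201- cells (SE 0.08 each), and Dnajc27 and Dnajc1, at 0.00 and -0.05 in CD201+CD48- cells.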
